A study of Mus musculus with 40 samples.

Results

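Fibroblast growth factor 4 (*Fgf4*), the FGF receptors *Fgfr1* and *Fgfr2*, and 7 genes that ERK signalling is known to switch on (*Dusp4*, *Dusp6*, *Spry2*, *Spry4*, *Spred1*, *Etv4* and *Etv5*) were followed through an RNA-seq experiment in mouse embryonic stem cells (mESCs). These 10 genes were chosen by name, with earlier results of these data known, from the 55536 genes of the count tables. All 10 passed the filter on low counts in every comparison. The study compared WT cells with knockouts (KO) of *Ccnc*, which encodes Cyclin C, and of *Cdk8*, which encodes its partner kinase in the Mediator complex, a complex that links transcription factors to RNA polymerase II. Cells grown in serum with LIF on gelatin received DMSO or 900 nM of the ATR kinase inhibitor (ATRi) AZD6738 for 4 h. There were 2 biological replicates of WT cells (WT_1 and WT_2) and 3 clones of each knockout, D1, G2 and H5 for *Ccnc* and B9, H4 and C8 for *Cdk8*, and each line gave 1 DMSO and 1 ATRi library. Each clone is a single edited line, so a trait of a clone and an effect of its knockout cannot be told apart within that clone.

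FGF4 is made by mESCs themselves and acts back on them through FGFR1 and FGFR2, which feed the RAS, RAF, MEK and ERK kinases. ERK activity prepares mESCs to leave the naive state and, in the blastocyst, favours primitive endoderm over epiblast. The pathway restrains itself: ERK induces the phosphatases DUSP4 and DUSP6, which take phosphate off ERK, and the Sprouty and Spred proteins, which act upstream at the level of receptors, RAS and RAF. The same signal induces the ETS-family transcription factors ETV4 and ETV5, and the mRNAs of all these targets are commonly read as a gauge of ERK output.

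The libraries fell into 2 sequencing multiplexes of 10, one for each knocked-out gene, with the same 4 WT libraries sequenced in both, and each held 30899823 to 67274049 counts. *Ccnc* mRNA lay at 43.3 to 45.4 CPM (counts relative to a scaled library total) in WT libraries and 4.24 to 7.41 CPM in *Ccnc* KO libraries, a log2 fold change of -2.93 (edgeR quasi-likelihood test, adjusted p = 1.14e-08). *Cdk8* mRNA lay at 71.1 to 78.8 CPM in WT and 52.4 to 64.3 CPM in *Cdk8* KO libraries, a log2 fold change of -0.35 (adjusted p = 0.0112), so most of the transcript remained. The mRNA level does not measure the protein: per the study's methods, its knockout clones were checked for complete loss by western blot and were genotyped. All 8 mESC markers were present, from *Klf4* at 117 to 240 CPM to *Pou5f1* at 1122 to 1477 CPM. The WT_2 ATRi library, which the study left out of its analyses, differed from WT_1 ATRi by a chi-square per degree of freedom of 83.7 and 75.6 in the 2 multiplexes, against 12.1 and 11.4 between the WT DMSO libraries, and it enters a test here only where said. Clone H4 also stood apart: its summed trophectoderm markers reached 240 to 252 CPM against 34.1 to 60.0 CPM in B9 and C8, 35.1 to 63.0 CPM in the *Ccnc* KO clones and 15.7 to 17.5 CPM in WT. *Krt8* (16.6 to 140 CPM in *Cdk8* KO libraries) and *Krt18* (10.6 to 106 CPM) made up most of this sum. *Eomes* and *Gata3* were also above WT in *Cdk8* KO libraries, at up to 5.30 and 1.09 CPM. *Cdx2* (0.44 to 0.89 CPM, WT 0.46 to 0.95 CPM) and *Elf5* (0.03 to 0.19 CPM, WT 0.04 to 0.13 CPM) overlapped WT. In H4 the summed neuroectoderm markers reached 97.7 to 112 CPM against 34.98 to 53.3 CPM in B9 and C8 and 47.2 to 53.6 CPM in WT. Its summed formative or primed epiblast markers reached 283 to 285 CPM against 169 to 217 CPM and 212 to 223 CPM. *Nes* was the highest neuroectoderm marker (21.0 to 90.4 CPM in *Cdk8* KO libraries). *Sox1* (9.50 to 12.3 CPM) and *Pax6* (4.12 to 9.14 CPM) lay below WT (13.9 to 15.2 and 11.2 to 11.9 CPM) in all *Cdk8* KO libraries, H4 included. *Dnmt3b* was the highest formative or primed epiblast marker (135 to 243 CPM, WT 181 to 187 CPM).

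All 10 genes were expressed in every library. Compared per kilobase of exon in the WT DMSO libraries of the *Ccnc* multiplex (mean ± SD, n = 2), *Etv4* stood highest at 127 ± 0.936 CPM per kb, followed by *Spry2* at 77.0 ± 3.66 and *Etv5* at 66.8 ± 1.42. *Spry4* at 47.9 ± 1.73 and *Fgf4* at 45.8 ± 2.31 came next, and these neighbours overlapped. *Dusp6* followed at 34.5 ± 0.483, *Spred1* at 17.9 ± 0.679, *Fgfr1* at 15.2 ± 0.872, *Dusp4* at 11.6 ± 2.31 and *Fgfr2* at 1.21 ± 0.150 CPM per kb. The order was the same in the *Cdk8* multiplex, where again only *Spry4* and *Fgf4* overlapped. *Fgfr1* was thus the receptor with the higher mRNA level per kilobase of the pair. In GRCm38 coordinates *Fgf4* lies at chr7:144847367-144865243 and *Fgfr1* at chr8:25513654-25575718 (both plus strand), *Fgfr2* at chr7:130162451-133123350 (minus), *Dusp4* at chr8:34807297-34819894 (plus) and *Dusp6* at chr10:99263231-99267489 (plus). *Spry2* lies at chr14:105891947-105896819 (minus), *Spry4* at chr18:38586247-38601415 (minus), *Spred1* at chr2:117121374-117182279 (plus), *Etv4* at chr11:101769742-101785371 (minus) and *Etv5* at chr16:22381309-22439719 (minus). Exons of *Fgfr2* overlap those of *Ctbp2* on the same strand, so reads there are ambiguous and the *Fgfr2* level is uncertain to that extent.

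**Figure D1:**
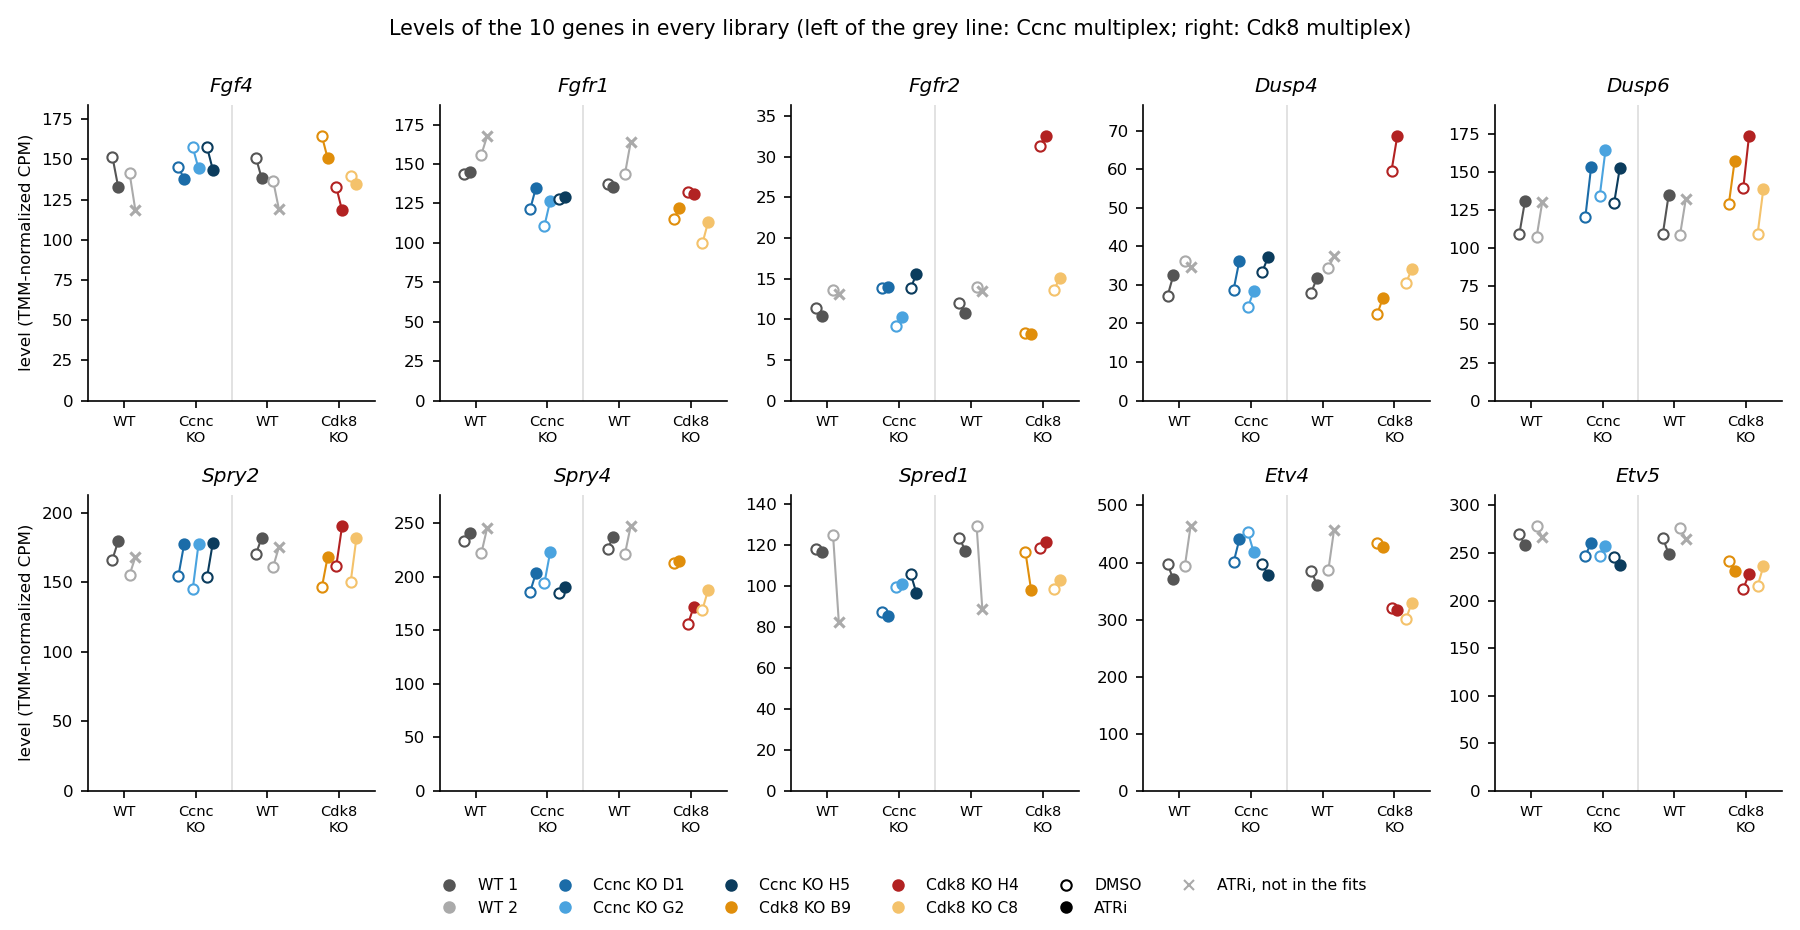
Level of each of the 10 genes in every library, 1 panel per gene, in CPM on a linear axis from 0, with open points for DMSO, filled points for ATRi, a line joining the libraries of a line and a cross for the WT_2 ATRi library, which entered no main test. The *Dusp6* level is higher under ATRi in each line, and clone H4 stands above all other lines for *Fgfr2* and *Dusp4*.

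The first comparison asked how the pathway's own readouts respond to 4 h of ATR inhibition. *Dusp6*, the ERK phosphatase, was higher under ATRi in all 8 lines, and *Spry2*, *Spry4* and *Dusp4* were also higher in 8 of 8, while *Fgf4* was lower in 8 of 8 (WT lines averaged over their 2 sequencing runs). The 8 lines include WT_2, whose ATRi library the study left out. Without WT_2 each of these counts was 7 of 7. Of 18130 genes expressed in both multiplexes, 3.64% were higher in all 8 lines and 5.5% lower in all 8. The sizes were small, at most 0.35 on the log2 scale for any of these 5 genes in any line.

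In the *Ccnc* multiplex *Dusp6* read 109 and 107 CPM in WT_1 and WT_2 under DMSO and 131 CPM in WT_1 under ATRi, and 120, 134 and 129 CPM in D1, G2 and H5 under DMSO against 153, 164 and 152 CPM under ATRi. In the *Cdk8* multiplex the WT libraries read 109 and 109 CPM under DMSO and 135 CPM under ATRi, and B9, H4 and C8 went from 129, 139 and 109 CPM to 157, 173 and 139 CPM. Every line was higher under ATRi, by 0.24 to 0.35 on the log2 scale, and the ATRi and DMSO libraries overlapped only among the *Cdk8* KO clones, where C8 started lowest. The share of all genes without such overlap was not counted. The mean difference over the 7 lines without WT_2 was 0.30 ± 0.04 (SD). *Dusp6* was the 1 member called in the *Ccnc* multiplex (log2 fold change 0.28, 95% interval 0.18 to 0.39, adjusted p = 0.0176), where 1.11% of all genes were called. The call was lost without WT_1 (adjusted p = 0.14), G2 (0.11) or H5 (0.089). With the line as a block, which compares each line's ATRi library with its own DMSO library, it stayed (adjusted p = 0.0181, 2.43% of all genes called), but with WT_2 ATRi added to the block the adjusted p was 0.0579.

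In the *Cdk8* multiplex the edgeR test called 0 members, with 2 at an unadjusted p under 0.05 (*Dusp6* and *Spry2*, both called by DESeq2, which called 2.02% of all genes), and 0.0855% of all genes. With the line as a block 4 members were called and 11.3% of all genes. These were *Dusp6* (0.30, 95% interval 0.24 to 0.37, adjusted p = 5.74e-05), *Spry2* (0.19, adjusted p = 0.00225), *Dusp4* (0.19, adjusted p = 0.00905) and *Fgf4* (-0.12, adjusted p = 0.0231). *Dusp6* and *Spry2* kept their calls with WT_2 ATRi added (adjusted p = 0.00739 and 0.0479) and with H4 left out (0.00104 and 0.0199), whereas *Dusp4* (0.061 and 0.0574) and *Fgf4* (0.0926 and 0.121) did not.

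*Spry2*, the Sprouty that curbs signalling between receptor and RAF, read 166 and 155 CPM in WT_1 and WT_2 under DMSO and 179 CPM in WT_1 under ATRi in the *Ccnc* multiplex, and D1, G2 and H5 went from 155, 145 and 154 CPM to 177, 177 and 178 CPM. Sequenced with the *Cdk8* KO clones, the WT libraries read 170 and 161 CPM under DMSO and 182 CPM under ATRi, and B9, H4 and C8 went from 147, 162 and 150 CPM to 168, 190 and 182 CPM. The ATRi libraries of the *Ccnc* KO clones did not overlap their DMSO libraries, nor did those of the *Cdk8* KO clones. How many of all genes did the same was not counted, so this separation is no measure of the *Spry2* response. In the *Ccnc* multiplex the difference missed the threshold without the block (0.21, adjusted p = 0.0523) and with it (0.20, adjusted p = 0.0649). The WT lines differed by 0.10 to 0.12 in each run and the knockout lines by 0.20 to 0.29, but the interaction with genotype was not called in either multiplex.

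*Fgf4*, the ligand, moved the other way. It read 152 and 141 CPM in WT_1 and WT_2 under DMSO and 133 CPM in WT_1 under ATRi in the *Ccnc* multiplex, and D1, G2 and H5 went from 145, 157 and 157 CPM to 138, 144 and 143 CPM. For *Cdk8* KO, the WT libraries of the multiplex read 151 and 137 CPM under DMSO and 138 CPM under ATRi, and B9, H4 and C8 went from 164, 133 and 140 CPM to 151, 118 and 135 CPM. *Fgf4* was lower under ATRi by a log2 difference of -0.23 to -0.05 across the 8 lines, and among the *Cdk8* KO clones the DMSO and ATRi libraries overlapped. *Fgf4* was not called in the *Ccnc* multiplex (-0.13, adjusted p = 0.231, and 0.174 with the block).

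*Dusp4*, the nuclear ERK phosphatase, was higher by 0.15 to 0.33 on the log2 scale in the 7 lines without WT_2, while in WT_2 its 2 sequencing runs gave -0.06 and 0.12. *Spry4* differed by 0.01 to 0.20 over the 8 lines with no call in either multiplex (0.11, adjusted p = 0.341, and 0.09, adjusted p = 0.783). *Fgfr1* was higher under ATRi in 6 of 8 lines, *Fgfr2* in 5, *Etv5* in 4, and *Etv4* and *Spred1* in 3, and none of these was called with or without the block. The ETV factors were not among the genes that moved one way in all lines: the interval for *Etv5* ran from -0.12 to 0.10 in the *Ccnc* multiplex and that for *Etv4* from -0.17 to 0.08. The WT_2 ATRi library stood apart for *Spred1* and *Etv4*: *Spred1* was lower than in WT_2 DMSO by a log2 value of -0.60 and -0.54 and *Etv4* higher by 0.24 and 0.24 in the 2 runs.

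**Figure D2:**
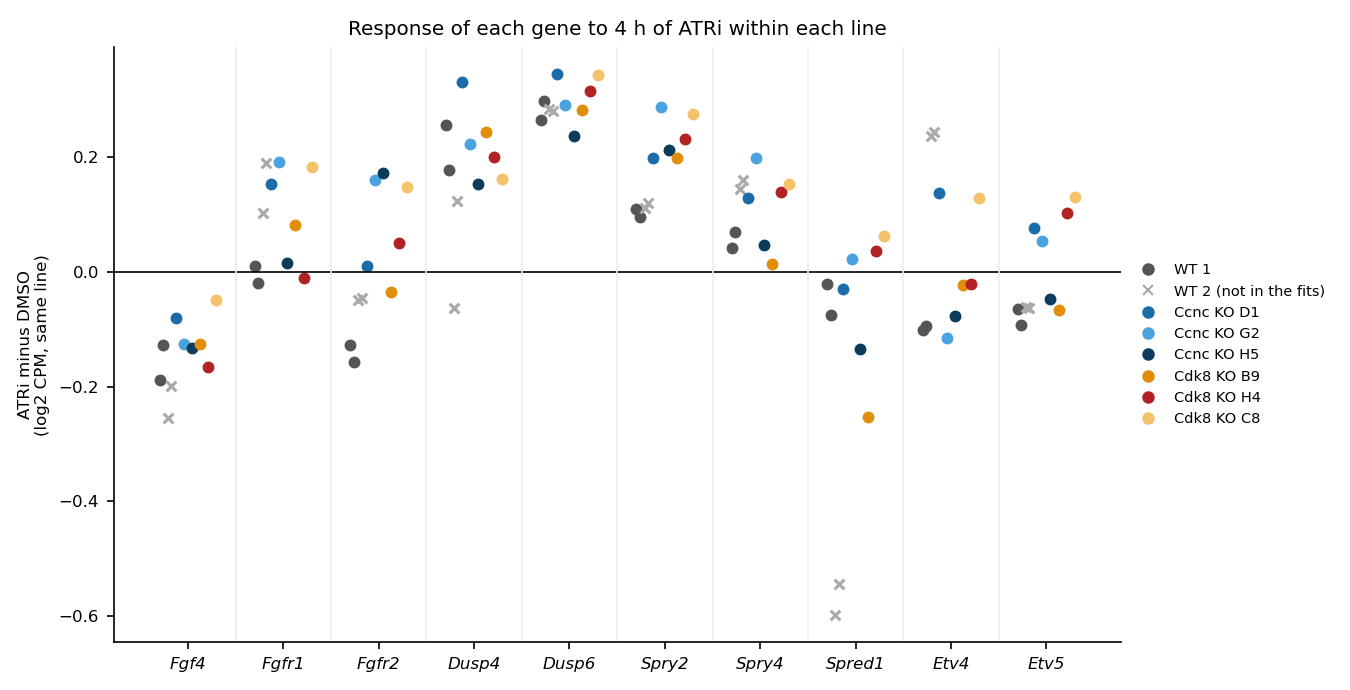
ATRi minus DMSO difference of log2 CPM within each line, by gene, with WT lines shown for both sequencing runs and WT_2 marked separately. All points of *Dusp6* and *Spry2* lie above 0 and all points of *Fgf4* below 0, while *Etv4*, *Etv5*, *Fgfr1*, *Fgfr2* and *Spred1* scatter on both sides.

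Whether the response to ATRi depended on Cyclin C or CDK8 was tested as an interaction. The edgeR test called 0 of the 10 members and 0 of all genes in both multiplexes (0% and 0%), with 0 members and 395 and 255 genes at an unadjusted p under 0.05, and DESeq2 also called 0. For *Dusp6* the difference in response, knockout minus WT, was 0.01 (95% interval -0.24 to 0.26) for *Ccnc* KO and -0.00 (-0.43 to 0.42) for *Cdk8* KO. With the line as a block these intervals were -0.28 to 0.33 and -0.17 to 0.16. Only 1 WT ATRi library enters this comparison, and the intervals are wide beside the response itself.

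Because *Dusp6* and *Spry2* moved together and *Fgf4* moved the other way, the 250 bases before the RefSeq start of each are shown (GRCm38.p6, read 5′ to 3′ on the gene's strand). For *Fgf4* this start lies inside the gene span given above, not at its beginning. Capitals mark the core of the ETS-family motif, GGAA, on either strand, so that it reads TTCC when it lies on the other strand. *Dusp6* at chr10:99262981-99263230 (plus strand) holds 6 such cores, *Spry2* at chr14:105896820-105897069 (minus) holds 3 and *Fgf4* at chr7:144861136-144861385 (plus) holds 0.
Dusp6: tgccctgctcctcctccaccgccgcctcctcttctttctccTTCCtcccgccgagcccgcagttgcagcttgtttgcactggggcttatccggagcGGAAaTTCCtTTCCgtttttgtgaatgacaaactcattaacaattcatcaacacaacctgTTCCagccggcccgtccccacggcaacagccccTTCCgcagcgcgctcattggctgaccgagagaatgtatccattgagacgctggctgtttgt
Spry2: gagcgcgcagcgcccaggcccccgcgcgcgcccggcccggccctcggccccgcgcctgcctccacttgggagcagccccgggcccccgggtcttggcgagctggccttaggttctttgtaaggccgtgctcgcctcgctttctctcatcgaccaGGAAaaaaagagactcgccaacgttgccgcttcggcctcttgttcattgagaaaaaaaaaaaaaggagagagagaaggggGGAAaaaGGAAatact
Fgf4: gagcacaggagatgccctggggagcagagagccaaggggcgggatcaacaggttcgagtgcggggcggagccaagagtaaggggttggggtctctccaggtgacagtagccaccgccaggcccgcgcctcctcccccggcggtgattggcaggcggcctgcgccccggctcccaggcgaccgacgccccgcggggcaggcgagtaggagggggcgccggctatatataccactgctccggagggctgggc

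GGAA or TTCC occurs in 93.4% of the 32851 RefSeq promoters of this length, with a median of 3 cores and a 10th to 90th percentile of 1 to 5. The 6 of *Dusp6* and the 0 of *Fgf4* both lie outside that range, and the 3 of *Spry2* equal the median. Whether these cores have a part in the response to ATRi was not tested. Promoter entries were at hand for 6 of the 10 genes. *Spred1* holds 4 cores, *Fgfr2* 2, and the 2 entries of *Etv5* 0 and 4. The entries of *Fgfr2* and *Etv5* lie wholly or partly inside the gene spans given above. The longer motif CCGGAAG, present in 6.91% of promoters, and the cyclic-AMP element TGACGTCA, present in 1.55%, were in none of these entries, and the CCAAT box, present in 33.8%, was in those of *Fgf4*, *Dusp6* and *Etv5*. *Fgfr1*, *Dusp4*, *Spry4* and *Etv4* were not searched.

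The second comparison asked what loss of Cyclin C or CDK8 did to the same genes, with the treatment as a term. In *Ccnc* KO cells *Dusp6* was higher by a log2 fold change of 0.25 and 3 members were lower, *Spred1* by -0.31, *Fgfr1* by -0.25 and *Spry4* by -0.25, so that 4 of 10 were called where 12.3% of all genes were. In *Cdk8* KO cells the same test called 0 members, with 4 at an unadjusted p under 0.05 (*Spry4*, *Etv5*, *Fgfr1* and *Dusp6*) and 2 called by DESeq2 (*Spry4* and *Etv5*), where 4.31% of all genes were called by edgeR and 9.61% by DESeq2. The 10 genes had a median log2 fold change of -0.05 with *Ccnc* lost and -0.09 with *Cdk8* lost, against 0.00 and 0.01 for all genes. Both comparisons use the same WT libraries, so likeness between them is not independent.

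Among the receptors, *Fgfr1* fell in *Ccnc* KO cells, and its levels in *Cdk8* KO cells were also below WT. It read 144, 156 and 145 CPM in WT_1 DMSO, WT_2 DMSO and WT_1 ATRi in the *Ccnc* multiplex, and 121, 111 and 128 CPM under DMSO and 135, 127 and 129 CPM under ATRi in D1, G2 and H5. The WT libraries of the *Cdk8* multiplex read 137, 143 and 136 CPM, and B9, H4 and C8 read 115, 132 and 99.7 CPM under DMSO and 122, 131 and 113 CPM under ATRi. All 6 knockout libraries of each gene lay below all 3 WT libraries. The fold change was 0.84 in *Ccnc* KO (log2 95% interval -0.38 to -0.12, adjusted p = 0.0139) and 0.852 in *Cdk8* KO (-0.42 to -0.04, adjusted p = 0.151). Without H4 the latter was called (-0.32, adjusted p = 0.016).

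*Fgfr2* differed widely between the *Cdk8* KO clones. It read 11.97, 13.9 and 10.7 CPM in the WT libraries of the *Cdk8* multiplex, 8.35 and 8.14 CPM in B9, 13.6 and 15.1 CPM in C8, and 31.4 and 32.5 CPM in H4 (DMSO and ATRi in turn). H4 alone was high, and B9 lay below all WT libraries. The *Cdk8* KO estimate of 0.58 (95% interval -0.46 to 1.63, adjusted p = 0.519) became -0.10 (-0.59 to 0.39) without H4. In *Ccnc* KO libraries *Fgfr2* ranged from 9.20 to 15.6 CPM against 10.5 to 13.6 CPM in WT (0.12, adjusted p = 0.673).

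*Dusp4* had the same outlying clone, at 59.6 and 68.5 CPM in H4 against 22.4 to 34.0 CPM in B9 and C8 and 28.0 to 34.4 CPM in WT. Its *Cdk8* KO estimate of 0.33 (95% interval -0.44 to 1.10) turned to -0.17 without H4. The same clone had the high trophectoderm and neuroectoderm marker sums given above, in which *Krt8* and *Nes* were the highest markers. It also had the lowest mESC marker sum (3188 to 3400 CPM against 3756 to 4174 CPM in B9 and C8) and a fibroblast marker sum of 21.9 to 25.2 CPM against 8.93 to 10.8 CPM. Of the fibroblast markers *Col1a1* was the highest, at 2.04 to 16.9 CPM in *Cdk8* KO and 1.48 to 2.15 CPM in WT libraries of that multiplex. *Dcn* was the lowest, at 0.02 to 0.26 CPM and 0.03 to 0.10 CPM. The part of these markers in the *Fgfr2* and *Dusp4* levels was not tested. In bulk RNA a change in the share of cells of a type and a change in RNA per cell cannot be told apart.

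*Dusp6* was higher in *Ccnc* KO than in WT libraries under both treatments: the DMSO libraries, at 120 to 134 CPM, lay above the WT pair at 107 and 109 CPM, and the ATRi libraries, at 152 to 164 CPM, above WT_1 at 131 CPM. The fold change was 1.19 (log2 95% interval 0.14 to 0.37, adjusted p = 0.00701). In *Cdk8* KO cells B9 and H4 lay above WT under each treatment, but C8 under DMSO, at 109 CPM, did not (0.21, 95% interval 0.02 to 0.40, adjusted p = 0.195). The ATRi minus DMSO difference in the 3 *Ccnc* KO lines was 0.35, 0.29 and 0.24 on the log2 scale.

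*Spry4* and *Spred1*, which act upstream of ERK, were lower in *Ccnc* KO cells. *Spry4* read 234, 222 and 240 CPM in the WT libraries of the *Ccnc* multiplex (WT_1 DMSO, WT_2 DMSO and WT_1 ATRi), and 186, 194 and 185 CPM under DMSO and 203, 223 and 191 CPM under ATRi in D1, G2 and H5, with G2 under ATRi as the 1 library that reached the WT range (fold change 0.84, log2 95% interval -0.37 to -0.13, adjusted p = 0.0095). In the *Cdk8* multiplex it read 226, 221 and 237 CPM in WT, and 212, 156 and 169 CPM under DMSO and 214, 172 and 188 CPM under ATRi in B9, H4 and C8. All 6 lay below WT, B9 by the least (fold change 0.802, log2 95% interval -0.53 to -0.11, adjusted p = 0.0894). Without B9 the log2 fold change was -0.44 (adjusted p = 0.0045).

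*Spred1*, which holds RAS inactive together with neurofibromin, read 118, 125 and 117 CPM in the WT libraries of the *Ccnc* multiplex, and 87.2, 99.4 and 106 CPM under DMSO and 85.5, 101 and 96.7 CPM under ATRi in D1, G2 and H5. All 6 knockout libraries lay below WT (fold change 0.808, log2 95% interval -0.45 to -0.16, adjusted p = 0.00828). The excluded WT_2 ATRi library, at 82.4 CPM, lay below all of them, and with it the call was lost (-0.20, adjusted p = 0.198). In the *Cdk8* multiplex *Spred1* was not called (-0.16, adjusted p = 0.27), except without H4 (-0.23, adjusted p = 0.0448). *Spry2* differed little from WT in either knockout (-0.06, 95% interval -0.16 to 0.05, and -0.08, -0.20 to 0.04).

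Of the ETS factors, *Etv5* read 266, 276 and 249 CPM in the WT libraries of the *Cdk8* multiplex, and 242, 212 and 215 CPM under DMSO and 231, 228 and 236 CPM under ATRi in B9, H4 and C8. All 6 knockout libraries were below WT, and the adjusted p of 0.0504 fell just short of the threshold (fold change 0.861, log2 95% interval -0.33 to -0.10). Without B9 (-0.25, adjusted p = 0.037) and with WT_2 ATRi included (-0.22, adjusted p = 0.0336) it was called. *Etv4* split by clone, with B9 at 433 and 427 CPM above WT (361 to 387 CPM) and H4 and C8 at 300.3 to 329 CPM below it. Without B9 its log2 fold change went from -0.09 (adjusted p = 0.717) to -0.26 (adjusted p = 0.022). In *Ccnc* KO cells neither was called (*Etv5* -0.10, adjusted p = 0.224, and *Etv4* 0.11, adjusted p = 0.283).

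*Fgf4* did not differ from WT by more than the spread in either knockout, at 138 to 157 CPM in *Ccnc* KO against 133 to 152 CPM in WT (0.08, 95% interval -0.03 to 0.19, adjusted p = 0.353) and at 118 to 164 CPM in *Cdk8* KO against 137 to 151 CPM (-0.01, -0.20 to 0.19, adjusted p = 0.978). Counted over all 10 genes, every knockout library lay below every WT library used for 2 genes in *Ccnc* KO (*Fgfr1* and *Spred1*) and 3 in *Cdk8* KO (*Fgfr1*, *Spry4* and *Etv5*), where 6.84% and 5.92% of all genes did so. The opposite, every knockout library above WT, held for 0 members in either knockout, where it held for 7.64% and 6.65% of all genes.

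**Figure D3:**
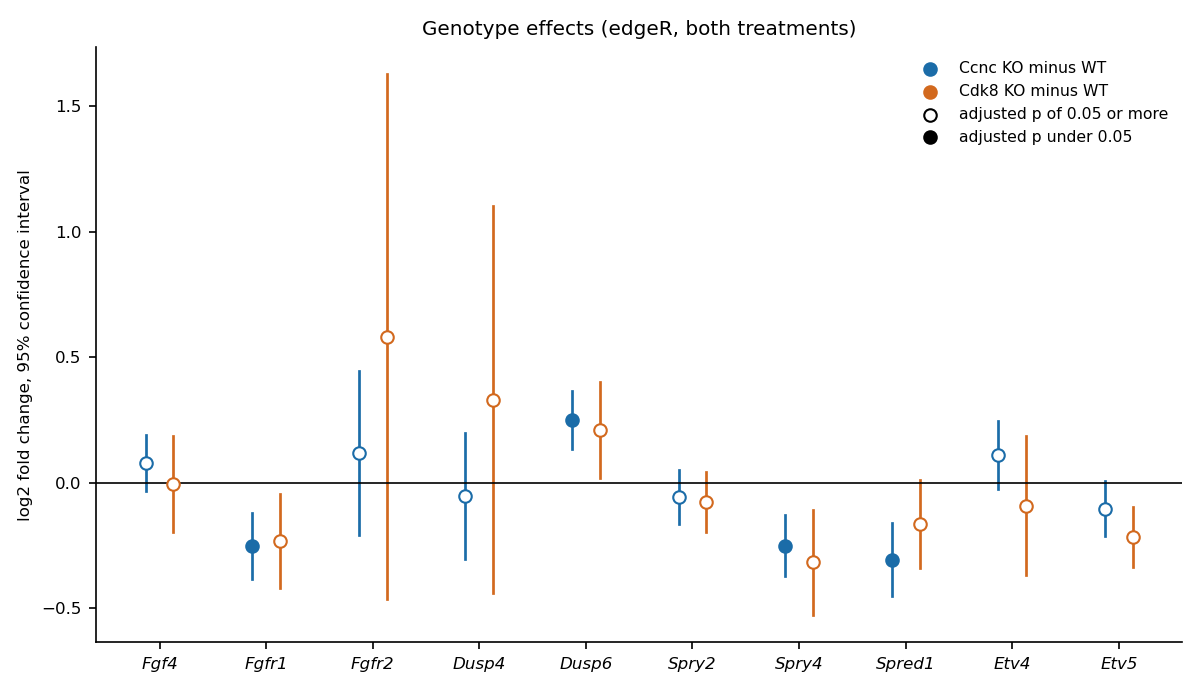
Knockout minus WT log2 fold change of each gene with its 95% interval, for *Ccnc* KO and *Cdk8* KO, where filled points passed an adjusted p of 0.05. In *Ccnc* KO cells *Fgfr1*, *Spry4* and *Spred1* lie below 0 and *Dusp6* above it with narrow intervals, and the wide intervals of *Fgfr2* and *Dusp4* in *Cdk8* KO cells come with the high levels in clone H4.

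The 4 calls in *Ccnc* KO cells stood with the line as a random effect (limma voom, adjusted p = 0.0096 for *Dusp6*, 0.0107 for *Spred1*, 0.0122 for *Spry4* and 0.0186 for *Fgfr1*), where 10.1% of all genes were called. With the libraries of a line summed, *Spry4* was not called (-0.22, adjusted p = 0.0595), though in that fit WT_2 stands with its DMSO library alone. *Fgfr1* lost its call without WT_2 (-0.20, adjusted p = 0.0756) or G2 (-0.21, adjusted p = 0.0745). In DMSO libraries alone the log2 fold changes were 0.25 for *Dusp6*, -0.31 for *Spred1*, -0.27 for *Spry4* and -0.31 for *Fgfr1*, with adjusted p from 0.0683 to 0.112 and unadjusted p from 0.00347 to 0.00877. Without WT_1 all 4 calls were lost as well (adjusted p from 0.0664 to 0.244), with log2 fold changes of 0.25 for *Dusp6* and -0.25 to -0.39 for the other 3. Primitive endoderm markers were higher in both knockouts, 8 of 10 in *Ccnc* KO and 10 of 10 in *Cdk8* KO cells, with sums of 636 to 811 CPM and 751 to 1078 CPM against 356 to 393 CPM in WT, and every one of the 10 was above 0 in every library. With the line as a random effect 8 and 7 of the 10 were called. Summed trophectoderm markers were above WT in every knockout line, as given above, with 4 of 6 called higher in *Ccnc* KO and 1 of 5 in *Cdk8* KO cells. *Krt8* was the highest of these markers, and *Cdx2* overlapped WT in both knockouts. Neuroectoderm markers summed to 29.1 to 40.8 CPM in *Ccnc* KO libraries against 48.0 to 53.6 CPM in WT, with 2 of 4 called lower. Of 8 mESC markers 4 were called lower on loss of *Ccnc* and 2 on loss of *Cdk8*. The random effect gave 4 mESC, 4 trophectoderm and 2 neuroectoderm calls on loss of *Ccnc*. For *Cdk8* it called 0 of 8 mESC and 0 of 5 trophectoderm markers. Of all genes, edgeR called 12.3% on loss of *Ccnc* and 4.31% on loss of *Cdk8*, and the random-effect fit 10.1% and 1.27%. What part these markers had in the levels of the FGF-ERK genes was not tested.

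The knockouts were then set against each other, each relative to its own WT runs. The edgeR test called 0 members and 1 gene of all, *Ccnc* itself (0.00545%), with 0 members at an unadjusted p under 0.05, and DESeq2 called the same numbers. The difference, *Cdk8* KO minus *Ccnc* KO, was 0.46 (95% interval -0.59 to 1.51) for *Fgfr2*, 0.38 (-0.40 to 1.16) for *Dusp4*, -0.20 (-0.49 to 0.10) for *Etv4* and 0.14 (-0.08 to 0.36) for *Spred1*. A gene called in one knockout and not in the other, such as *Dusp6* or *Spred1*, is therefore not shown to differ between them. The WT libraries enter this test once for each sequencing run, as separate samples that are not independent, and with the line as a random effect 0 members were called as well.

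Beyond these 10, a list of 86 other genes of the FGF-ERK pathway, of which 85 passed the filter, was examined by role. The list was written with earlier results of these data known, so its share of calls cannot show an excess over all genes. In *Ccnc* KO cells 25 were called, 9 higher and 16 lower (29.4%, beside 12.3% of all genes), and in *Cdk8* KO cells 11, 6 higher and 5 lower (12.9%, beside 4.31%). With the line as a random effect the counts were 22 (25.9%, beside 10.1% of all genes) and 1 (1.18%, beside 1.27%), so that in *Cdk8* KO cells the share was then no higher than that of all genes. Of the RAS, RAF, MEK and ERK genes and the RSK kinases downstream of ERK, 2 of 14 were lower in *Ccnc* KO and 1 of 14 in *Cdk8* KO cells. Of 10 adaptors 1 and 0 were called, of 9 ligands 4 and 2, of 7 receptors and co-receptors 3 and 2, and of 15 heparan sulfate genes 6 and 2. Of 16 inhibitors 3 were called in *Ccnc* KO cells, 1 higher and 2 lower, and 2 in *Cdk8* KO cells, 1 in each direction. Of 14 genes of ERK-responsive transcription 6 were called, 2 higher and 4 lower, and 2, 1 in each direction.

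There were 10 genes called by edgeR in both knockouts, each in the same direction in both, with the WT libraries shared. In *Ccnc* KO cells all 10 were also called with the line as a random effect (10.1% of all genes called). The same held with the libraries of a line summed (1479 of 18917 genes called). In *Cdk8* KO cells only *Fgf1* kept its call with the random effect (adjusted p = 0.0275, and 0.0689 to 0.164 for the other 9), where 1.27% of all genes were called. With summed libraries 0 of the 10 were called (adjusted p from 0.108 to 0.267), where only 3 of 19123 genes were. That loss is thus not particular to these genes. The other 9 *Cdk8* KO calls came from the main fit, which counts both libraries of a line as separate samples, and from neither of these fits. *Klb*, the co-receptor for endocrine FGFs, rose from 0.04 to 0.31 CPM in WT libraries (2 to 13 counts) to 1.13 to 2.17 CPM in *Ccnc* KO and 1.53 to 3.82 CPM in *Cdk8* KO libraries (adjusted p = 0.000143 and 0.00937). *Fgf5*, the ligand that marks cells leaving the naive state, was near the limit of detection, with 1 to 5 counts in each WT library and 7 to 24 in each knockout library (adjusted p = 0.0199 and 0.022), too few in WT for a useful fold. *Fgf1*, another ligand, fell from 7.08 to 8.60 CPM in WT to 3.11 to 3.88 CPM in *Ccnc* KO and 2.93 to 4.79 CPM in *Cdk8* KO libraries (log2 fold change -1.15 and -0.91). *Ets1*, an ETS transcription factor that ERK phosphorylates, rose by 1.36 and 1.94 from a low level, and *Flrt3*, a membrane protein that binds FGF receptors, by 0.53 and 1.01.

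Among inhibitors *Il17rd*, which encodes the antagonist SEF, fell (-0.43 and -0.37). *Dusp9*, another ERK phosphatase, rose (0.47 and 0.27), whereas the ERK phosphatase *Dusp5* fell in *Ccnc* KO cells (-0.52, adjusted p = 0.000854) and was not called in *Cdk8* KO cells (0.19, adjusted p = 0.811). *Ndst1*, which sulfates heparan chains that FGFs bind, fell by 0.43 and 0.31 on the log2 scale, *Rps6ka3*, the ERK-activated kinase RSK2, by 0.36 and 0.29, and *Epha2*, a receptor whose mRNA responds to ERK, by 0.48 and 0.33. Under ATRi the edgeR test called 0 of the 85 in both multiplexes, with 18 and 13 at an unadjusted p under 0.05. DESeq2 called 5 and 2 (5.88% and 2.35%, beside 3.5% and 2.02% of all genes). With the line as a block 2 and 14 were called (2.35% and 16.5%, beside 2.43% and 11.3%).

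**Figure D4:**
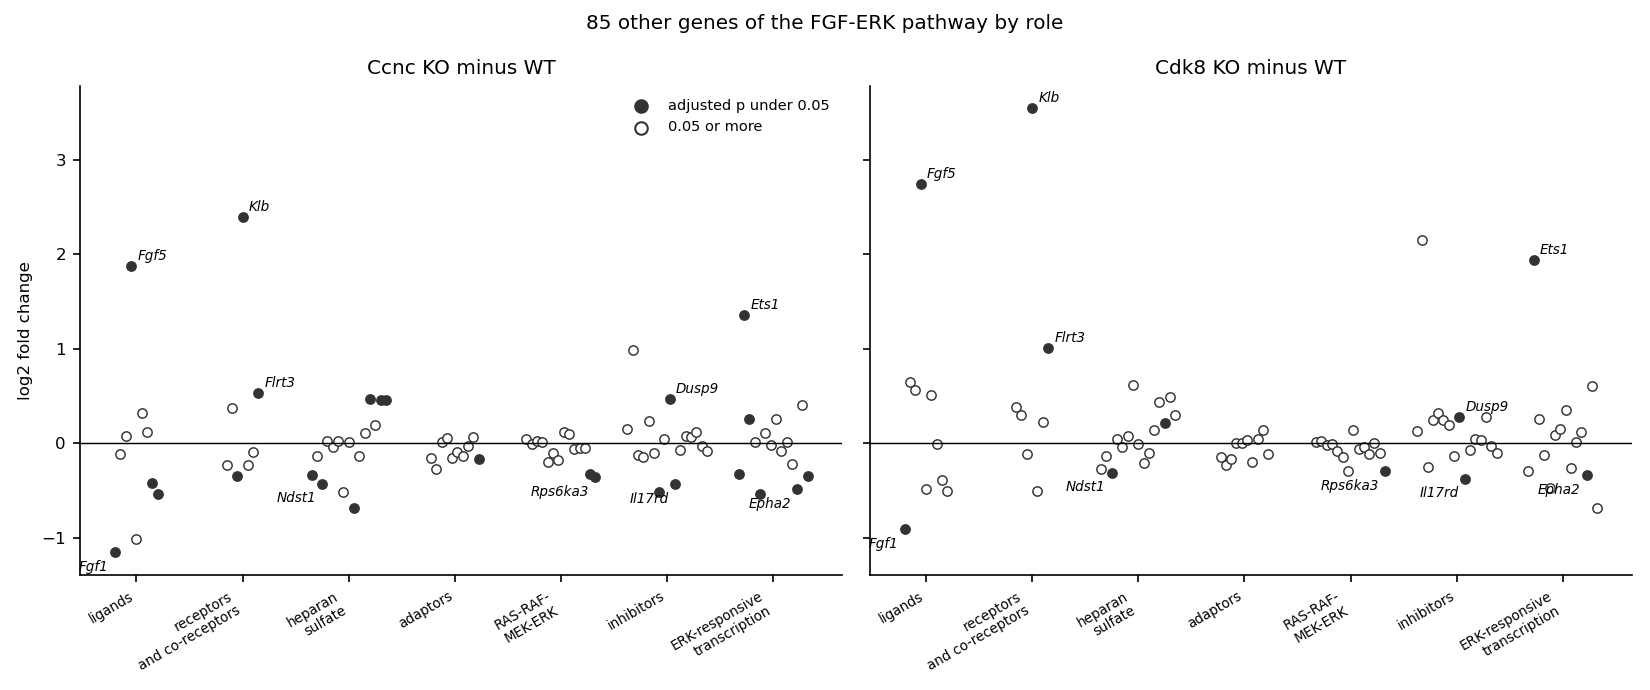
Knockout minus WT log2 fold change of 85 other FGF-ERK pathway genes, grouped by role, with filled points for an adjusted p under 0.05 and names for the 10 genes called by edgeR in both knockouts. The called kinase *Rps6ka3* lies at -0.36 and -0.29, and the largest called values are those of *Klb*, *Fgf5* and *Ets1*, of which *Klb* and *Fgf5* rest on few WT counts.

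Genes with a pattern most like that of a member were sought by the mean absolute difference of log2 CPM over the 18 libraries used, each gene centred on the WT DMSO libraries of its multiplex and candidates limited to genes of similar spread. For *Dusp6* these were *Smug1* (0.0862), *Nsun3* (0.0971) and *Vim* (0.0973) of 3682 candidates. *Fgf4* was followed most closely by *Cdc42se2* (0.045), *Exd2* (0.0515) and *Vat1* (0.0523) of 6036. For *Fgfr2*, whose highest libraries are those of clone H4, they were *Cnn2* (0.145), *Klhl13* (0.153) and *Ltbp1* (0.153) of 443. The 18 libraries include both sequencing runs of the WT libraries, so they are not 18 independent points.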

How the data were processed

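Poly(A) RNA of 20 libraries was sequenced as single-end directional reads on 2 lanes each. Per the study's methods, the authors trimmed reads with Trimmomatic 0.38, aligned them with HISAT2 2.1.0 to GRCm38.p6 and made the deposited counts per gene, one column per lane, with featureCounts 2.0.1, ignoring duplicates and counting the reverse strand. Ignoring marked duplicates can lower the counts of highly expressed genes. All 40 columns were used and 0 left out. Lanes of a library differed by a chi-square per degree of freedom of 1.30 to 1.43 and were summed, and the same WT library in both multiplexes by 1.70 to 2.08.

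Gene-wise tests were made on these counts with edgeR 4.0.16 (quasi-likelihood, TMM scaling, default filter on low counts, R 4.3.3) within a multiplex, with Benjamini-Hochberg adjustment over all genes and a threshold of 0.05. The genotype effect and the ATRi effect came from 1 additive model with genotype and treatment as terms. The interaction was added to it, and the difference between knockouts was the difference of the genotype effects in both multiplexes together, where each WT library enters once per run. The study excluded the ATRi library of WT_2, and so did these tests. The alternatives were DESeq2 1.42.0, other size factors, no filter on low counts, inclusion of WT_2, DMSO libraries alone, summed libraries, each replicate left out and the line as a block. The scripts were tested on simulated data in which every library was drawn independently, so that test does not cover the likeness of the libraries of a line. ATRi and DMSO libraries of a line pair by design, and their deviations from group means correlated at -0.02 (G2) to 0.91 (H4). In the main fits the 2 libraries of a line counted as separate samples. Their p-values therefore mix the spread within a line with that between lines, which are the biological WT replicates and the clones. Summed libraries take the line as the unit, and the random effect allows for it. In the summed fit WT_2 gives its DMSO library alone and every other line both, so treatment is not balanced between WT and knockout. The block used for ATRi and the interaction rests on differences within a line. CPM values use TMM scaling, a prior count of 2 on the log2 scale, and the summed exon length of the GENCODE vM21 annotation of GRCm38 for levels per kilobase. With 30899823 to 67274049 counts per library, the member with the lowest level had at least 340 counts in each.

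The 10 members and all gene lists were chosen with earlier results of these data known. Named besides them are the targeted genes, pathway genes called in both genotype effects (up to 12) or among the 3 largest called changes of either, markers with the lowest and highest level, and the 3 genes most like *Fgf4*, *Fgfr2* and *Dusp6* in pattern (mean CPM of at least 5, SD within 1.5-fold). *Dcn*, *Dusp5*, *Krt18*, *Eomes*, *Gata3*, *Cdx2*, *Elf5*, *Sox1* and *Pax6* were named after their values were seen.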

Additional observations from a re-analysis of the deposited data

How the results depend on the processing

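The number of members called kept within 1.5 times its value in 62 of 80 comparisons of a result with an alternative. These include the interactions and the difference between knockouts, where the main fit called 0 members, so this share is no measure of stability. Of the log2 fold changes of members, 393 of 470 kept their direction and their side of the threshold. For the *Ccnc* KO genotype effect (4 members and 2284 of all genes called), DMSO libraries alone gave 0 and 635, summed libraries 1479 of all genes, and leaving out 1 replicate 0 to 4 and 289 to 2640, lowest without WT_1. For *Cdk8* KO (0 and 806), DESeq2 gave 2 and 1799, no filter and inclusion of WT_2 gave 2 members each, DMSO libraries alone 5 of all genes, summed libraries 3, the replicate block 237, and leaving out 1 replicate 0 to 3 members (highest without B9) and 1 to 1512 of all genes (lowest without WT_1). For ATRi in the *Ccnc* multiplex (1 and 206), DESeq2 gave 2 and 651, RLE size factors 2, no filter 2 and 845, inclusion of WT_2 41 of all genes, the replicate block 451, and leaving out 1 replicate 0 to 1 and 21 to 250. For ATRi in the *Cdk8* multiplex (0 and 16), DESeq2 gave 2 and 378, no filter 41 of all genes, the replicate block 4 and 2107, and leaving out 1 replicate 0 to 29 of all genes. Fits chosen after seeing the data joined the block with WT_2, giving 0 and 46 in the *Ccnc* and 2 and 485 in the *Cdk8* multiplex, or with the loss of H4, giving 2 and 987. The interactions (0 genes) gave 20 without a filter for *Ccnc* KO and 4 with the block for *Cdk8* KO, and the difference between knockouts (1 gene) gave 4 without a filter and 1 to 11 on leaving out a replicate. The interaction without WT_1 could not be estimated, since no WT ATRi library then remains. Outside ATRi in the *Cdk8* multiplex the block alone changed no call of a member. With DMSO libraries alone, summed libraries or WT_1 left out fewer samples enter. The cause of the other shifts was not tested.

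Log2 fold changes of members that changed sign were all uncalled in both fits. For the *Ccnc* KO genotype effect, *Fgfr2* (0.12) was -0.02 in DMSO libraries alone and -0.16 to 0.29 on leaving out 1 replicate, *Dusp4* (-0.05) -0.33 to 0.08 on leaving out 1 replicate, and *Spry2* (-0.06) 0.00 with summed libraries. For *Cdk8* KO, *Fgf4* (-0.01) was 0.04 with WT_2, 0.01 in DMSO libraries alone, 0.01 with the block and -0.10 to 0.08 on leaving out 1 replicate, where *Fgfr2* (0.58) ranged from -0.10 to 0.93 and *Dusp4* (0.33) from -0.17 to 0.59, both lowest without H4. For ATRi in the *Ccnc* multiplex, *Fgfr2* (-0.01) was 0.00 with DESeq2, 0.04 with WT_2, 0.05 with the block, 0.04 with both and -0.07 to 0.12 on leaving out 1 replicate, *Etv4* (-0.04) 0.02 with WT_2 and 0.02 with WT_2 and the block, and *Etv5* (-0.01) 0.00 with the block and -0.04 to 0.04 on leaving out 1 replicate. In the *Cdk8* multiplex, *Fgfr2* (-0.04) was 0.00 with the block and -0.09 to 0.06 on leaving out 1 replicate, *Etv4* (-0.02) 0.05 with WT_2, 0.04 with WT_2 and the block and -0.05 to 0.02 on leaving out 1 replicate, *Etv5* (-0.01) 0.00 without a filter, 0.01 with the block and -0.04 to 0.05 on leaving out 1 replicate, and *Fgfr1* (0.03) -0.00 to 0.08 on leaving out 1 replicate. The precision of these values is limited by 1 WT ATRi library and 2 WT lines.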
